A study of Mus musculus with 6 samples.

Results

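Complement transcripts were measured in the adipocyte fraction of epididymal fat from mice with and without an adipocyte-directed deletion of PU.1, the transcription factor encoded by Spi1. The genes described are 9 components and receptors of the complement system, C1qa, C1qb, C1qc, C2, C3, C4b, Cfb, C3ar1 and C5ar1, picked by symbol from the 35122 genes of the count table, where each matched 1 Ensembl identifier. All 6 animals were C57BL/6 males aged 10 to 11 months according to the labels (the study's text describes older mice), kept on standard chow, and both groups carried homozygous floxed alleles of Spi1 (PU.1 fl/fl). The 3 control mice had no Cre, and the 3 aPU.1KO mice (AdipoqCre_PU.1 fl/fl) also carried a Cre transgene driven by the adiponectin gene promoter, which is active in mature fat cells. Controls were littermates of the aPU.1KO mice. The Cre driver is not active in macrophages, which can remain in the floating fraction that was collected. Mice are numbered 1 to 3 within each group in the order of their labels, with 1 library per mouse.

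The libraries held 20550252 to 69283842 counts, with control mouse 1 far deeper than the other 5. Levels are counts per 1000000 counts (CPM) on library sizes scaled by the TMM method. The log2 fold change (log2FC) compares aPU.1KO with control mice and is negative where aPU.1KO mice were lower, and its standard error is given as SE. The marker genes fit the adipocyte label: 10 of 10 adipocyte markers were expressed, and their summed level was 26012 to 28609 CPM in control and 31020 to 34205 CPM in aPU.1KO mice. Markers of other cells were present too. A list of 16 macrophage markers summed to 549.7 to 1885 CPM in control and 282.4 to 375.1 CPM in aPU.1KO mice, and 6 pan-leukocyte markers to 97.8 to 354.8 and 36.7 to 62.4 CPM. T cell and B cell markers summed to at most 4.16 and 3.65 CPM in any library, markers of the epididymal epithelium to 4.32 CPM and mesothelial markers to 21.3 CPM. Control mouse 2 stood apart from the other 2 control mice, with the lowest control level on both lists. Spi1 itself was at 24.3, 6.35 and 26.7 CPM in the control mice and 3.20, 1.22 and 4.17 CPM in the aPU.1KO mice. The log2FC of Spi1 was -2.75 (SE 0.64, adjusted p = 0.0788 by edgeR's quasi-likelihood test). The counts are per gene, so that they do not show whether the floxed exon was present.

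Complement is a cascade of plasma proteins that marks particles and cells for uptake and sets off inflammation. It can be started by C1q bound to antibodies or damaged cells (the classical pathway), by lectins bound to sugars (the lectin pathway), or by continuous low-level turnover of C3 that factor B amplifies (the alternative pathway), and all routes meet at the cleavage of C3. Most circulating complement is made by the liver, but C1q comes mainly from macrophages and related myeloid cells, and factor D, also called adipsin, is a well known secretory product of fat cells. The peptides C3a and C5a, released by the cleavage of C3 and C5, act on the receptors encoded by C3ar1 and C5ar1 on myeloid cells.

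Whether complement transcripts differed between control and aPU.1KO adipocytes was asked for each member in a fit over all 13925 genes that passed the count filter, which included all 9 members. All aPU.1KO mice lay below all control mice for C1qa, C1qb, C1qc, C3, C3ar1 and C5ar1 and above them for C2, and the groups overlapped for C4b and Cfb. Among all tested genes, the groups did not overlap in 15.5% with aPU.1KO lower and in 16.7% with aPU.1KO higher. None of the 9 members passed an adjusted p of 0.05 with edgeR, a threshold that 0.18% of all tested genes passed as lower and 0.0575% as higher, 0.237% together. At an unadjusted p under 0.05, 7 members were lower and 1 was higher, against 13.7% of all genes lower and 11.9% higher. DESeq2, the tool named in the study's methods, called the same 7 lower and the same 1 higher at an adjusted p under 0.05, against 8.73% and 4.69% of all genes, and limma-voom called 0 members. Without control mouse 2, edgeR called C1qa, C1qb, C1qc, C3, C3ar1 and C5ar1 as lower, against 6.93% of all genes lower and 1.41% higher, and without any other mouse it called 0 members. The median log2FC was -1.92 over the 9 members and 0.014 over all genes tested. With 3 mice per group, an exact permutation test of a single gene cannot give a two-sided p below 0.1. Which mice shared a litter is not given, and the tests took no account of litter. The p-values set the group difference against the spread between these libraries.

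**Figure D1:**
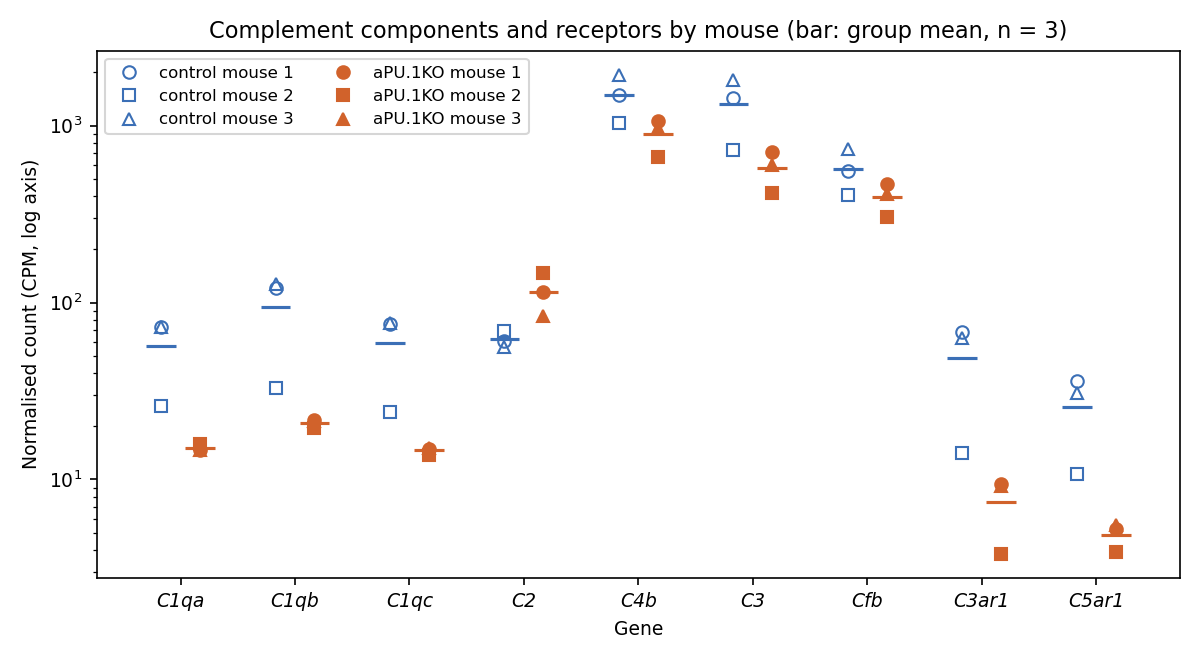
Normalised counts (CPM, log axis) of the 9 complement genes in each of the 3 control mice (open symbols) and 3 aPU.1KO mice (filled symbols), with bars at the group means. Control mouse 2 (open square) lies between the other control mice and the aPU.1KO mice for the C1q genes and the receptors C3ar1 and C5ar1, and C2 is the only gene of the 9 with all aPU.1KO mice above all control mice.

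The 3 chains of C1q are encoded side by side on chromosome 4 (GRCm38), all on the minus strand, with C1qb (ENSMUSG00000036905) at 136880129 to 136886187, C1qc (ENSMUSG00000036896) at 136889804 to 136893065 and C1qa (ENSMUSG00000036887) at 136895917 to 136898803, leaving 3616 and 2851 bases between neighbours. Equal numbers of the chains assemble into the recognition molecule of the classical pathway. C1qa was counted at 72.3, 26.0 and 72.4 CPM in control mice 1, 2 and 3 and at 14.6, 15.8 and 14.7 CPM in the aPU.1KO mice. C1qb was at 120.6, 33.0 and 128.0 CPM in the control mice and at 21.8, 19.5 and 21.5 CPM in the aPU.1KO mice. C1qc was at 75.8, 24.0 and 77.1 CPM in the control mice and at 14.9, 13.8 and 15.2 CPM in the aPU.1KO mice. The aPU.1KO mice were close to one another for all 3 genes, and most of the spread lay in the control group, where mouse 2 was the lowest each time but stayed above every aPU.1KO mouse. The log2FC values were -1.92 for C1qa (SE 0.38), -2.17 for C1qb (SE 0.47) and -2.01 for C1qc (SE 0.42), with edgeR adjusted p-values of 0.0759, 0.0783 and 0.0766. On the linear scale control levels were 3.79-fold, 4.49-fold and 4.04-fold those of aPU.1KO mice. DESeq2 gave adjusted p-values of 1.25e-05, 3.67e-05 and 2.91e-05, the lowest of all alternatives tried, where the highest for each gene was 0.313, without control mouse 1. Without control mouse 2, edgeR itself gave an adjusted p of 0.000832 for all 3 genes, with log2FC values of -2.28, -2.58 and -2.40.

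The proportions of the 3 transcripts varied little while their level varied several-fold. Per kilobase of exon, C1qb made up 44.8% to 51.8% of the summed C1q level in the control mice and 44.5% to 48.0% in the aPU.1KO mice. C1qa made up 30.6% to 36.9% and 33.6% to 37.7%, and C1qc 17.6% to 18.4% and 17.8% to 18.8%. Within every library the order per kilobase was C1qb, C1qa, C1qc. The order of the last 2 rests on their exon lengths, 1040 bp for C1qa and 1931 bp for C1qc. In CPM, C1qc was above C1qa in mice 1 and 3 of both groups and below it in mouse 2 of both.

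The C1q level was also set against the macrophage marker level of the same library, as log2 CPM minus the mean log2 CPM of the 15 macrophage markers that passed the filter. For C1qa this difference was 0.36, 0.13 and 0.81 in the control mice and 0.10, 0.57 and 0.01 in the aPU.1KO mice, and for C1qb it was 1.10, 0.48 and 1.63 against 0.68, 0.87 and 0.56. The groups overlapped for C1qa, C1qb and C1qc on this scale. The marker mean itself was lower in aPU.1KO mice, so that on this scale Cr1l, a complement regulator with a log2FC of 0.008, was 1.57 higher between group means. Group means of the C1q genes differed by -0.21, -0.37 and -0.26 (aPU.1KO minus control), where the log2FC values without this step were -1.92, -2.17 and -2.01. Of the 15 markers, 13 were lower in aPU.1KO mice and 8 did not overlap between the groups (15.5% of all genes), among them Adgre1 with a log2FC of -2.60. Mrc1 alone among them fell at an adjusted p under 0.05 (0.0389 by edgeR, up to 0.184 over the alternatives). The defining markers Adgre1, Csf1r and Cd68 were above 0 in every library. In bulk RNA, fewer macrophages and less C1q RNA per macrophage cannot be told apart, and the part of the macrophage level in the C1q difference was not tested.

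**Figure D2:**
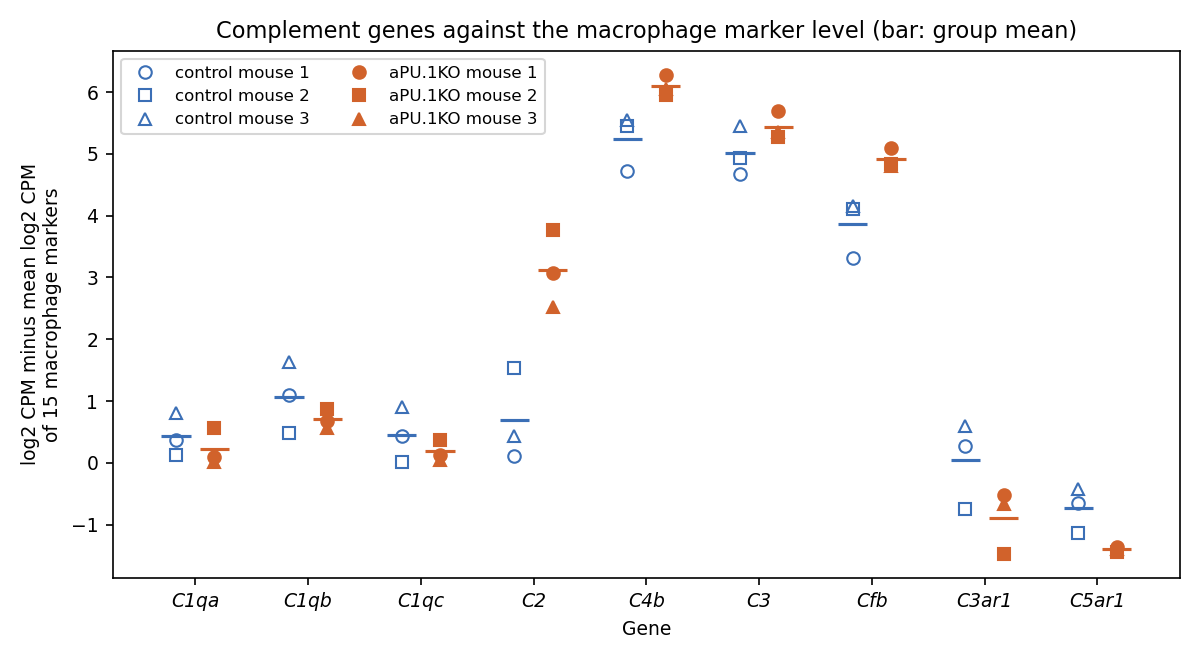
Log2 CPM of each of the 9 genes minus the mean log2 CPM of 15 macrophage markers in the same library, for the control mice (open symbols) and the aPU.1KO mice (filled symbols), with bars at the group means. The marker mean was lower in aPU.1KO mice, and Cr1l, with a log2FC of 0.008, would lie 1.57 higher in aPU.1KO mice on this scale. Between group means C2 lies 2.42 higher, C4b 0.86 and Cfb 1.05 higher, the groups overlap for the C1q genes, C3 and C3ar1, and C5ar1 is lower in the aPU.1KO mice.

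Outside complement, Emb, Ly86, Arhgap30 and Emp3 were among the 5 genes whose profile over the 6 libraries was closest to the mean C1q profile. Closeness was the root mean square difference between centred log2 CPM values, which ran from 0.089 for Emb to 0.12 for Emp3 among these 4, where the C1q profile itself had a standard deviation of 1.18. Ly86 was at 13.6, 4.38 and 13.2 CPM in the control mice and at 2.13, 2.40 and 2.27 CPM in the aPU.1KO mice, again with control mouse 2 below the other control mice.

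Promoter sequence was at hand in RefSeq (GRCm38.p6) for 5 of the 9 members, C1qb, C1qc, C3, C3ar1 and C5ar1. The 250 bases before each RefSeq start were searched, and distances are counted from it. The RefSeq start need not be the gene end given by GENCODE, which is the source of the gene coordinates in the text: 151 bases of the C1qc window, 202 of the C5ar1 window and 4 of the C3ar1 window lie inside the GENCODE gene. The bases outside it are printed 5′ to 3′ on the gene's strand for C1qb and C1qc, whose levels varied together, and for C3ar1, which had the largest difference. Capitals mark GAGGAA, a core that PU.1 binds, or its reverse complement TTCCTC.

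C1qb, chr4:136886201-136886450, minus strand: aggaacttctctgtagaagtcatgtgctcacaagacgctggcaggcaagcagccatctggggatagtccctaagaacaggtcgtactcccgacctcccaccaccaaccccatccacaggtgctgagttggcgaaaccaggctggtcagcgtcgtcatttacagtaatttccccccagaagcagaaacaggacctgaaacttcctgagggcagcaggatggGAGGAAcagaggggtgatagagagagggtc

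C1qc, chr4:136893066-136893164, minus strand: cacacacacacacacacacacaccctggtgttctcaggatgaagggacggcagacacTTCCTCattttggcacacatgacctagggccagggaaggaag

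C3ar1, chr6:122856162-122856407, minus strand: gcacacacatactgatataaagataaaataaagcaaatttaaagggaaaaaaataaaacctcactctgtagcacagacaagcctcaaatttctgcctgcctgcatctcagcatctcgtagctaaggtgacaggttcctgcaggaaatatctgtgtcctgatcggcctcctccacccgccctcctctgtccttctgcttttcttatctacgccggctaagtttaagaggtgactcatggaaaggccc

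The C1qb window held GAGGAA once, with its first base 30 bases before the start, and the C1qc window held TTCCTC once, 193 bases before the start. From the GENCODE starts the same matches lie 43 and 42 bases upstream. The C1qc match is part of ACTTCCTC, the reverse complement of the longer GAGGAAGT, which contains GAGGAA. No match to GAGGAA on either strand was found in the windows of C3ar1, C5ar1 or C3. Of 32851 promoter windows of that length in the RefSeq table, 23.3% held GAGGAA on either strand and 2.44% held GAGGAAGT. PU.1 binding was not measured here, and a match in letters is not a binding site.

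The other classical pathway members went in different directions. C2 encodes the serine protease that joins C4b in the C3 convertase of the classical and lectin pathways, and C4b encodes the fourth component, which is cleaved and attaches to the target surface. C2 (ENSMUSG00000024371; chromosome 17, 34862604 to 34898265) was counted at 60.6, 69.0 and 56.2 CPM in the control mice and at 115.1, 146.4 and 83.7 CPM in the aPU.1KO mice. Its log2FC was 0.89 (SE 0.20), a 1.86-fold higher level, at an adjusted p of 0.0786 (edgeR) and 0.00139 (DESeq2). Over all alternatives the adjusted p of C2 ran from that value to 0.313, and the log2FC stayed between 0.68 and 1.08 with each mouse left out in turn. On its own strand C2 overlaps exons of the readthrough gene Gm20547 by 1656 bp, which held 3 counts in all 6 libraries together, and on the other strand exons of Zbtb12 by 161 bp.

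C4b (ENSMUSG00000073418; chromosome 17, 34728380 to 34743882) was among the most abundant members, at 1486, 1034 and 1939 CPM in the control mice and 1061, 665.1 and 974.9 CPM in the aPU.1KO mice. Control mouse 2 lay between aPU.1KO mice 1 and 3, so the groups overlapped. The log2FC of C4b was -0.72 (SE 0.27), with 0.158 (edgeR) and 0.0465 (DESeq2) as adjusted p-values, which reached 0.417 over the alternatives. The transcript of C4b is 96.0% identical to that of C4a over 5378 bp, which covers nearly its full length of 5379 bp. No gene of the count table matched C4a, so that it could not be analysed, and reads from it may be counted under C4b. Among the other classical genes, C1ra and C1s1 encode the proteases that C1q activates. C1ra had a log2FC of -0.40 (SE 0.21) and C1s1 of -0.23 (SE 0.13), with edgeR adjusted p-values of 0.286 and 0.326, and the groups overlapped in both.

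In the alternative pathway, C3 was the member with the clearest difference. C3 (ENSMUSG00000024164; chromosome 17, 57203970 to 57228136), the component on which all pathways meet, was at 1435, 724.5 and 1812 CPM in the control mice and at 705.7, 414.8 and 597.5 CPM in the aPU.1KO mice. The groups did not overlap, but control mouse 2 and aPU.1KO mouse 1 were separated by only a small gap. The log2FC was -1.21 (SE 0.35), a 2.31-fold lower level, with an adjusted p of 0.105 by edgeR, 0.00495 by DESeq2 and 0.0205 by edgeR without control mouse 2. Over the alternatives it reached 0.369.

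Cfb (ENSMUSG00000090231; chromosome 17, 34856374 to 34862518) encodes factor B, the protease of the alternative pathway convertase. Its level was 556.6, 407.4 and 741.4 CPM in the control mice and 467.6, 304.2 and 408.3 CPM in the aPU.1KO mice, so that 2 aPU.1KO mice lay above control mouse 2. The log2FC of -0.53 (SE 0.25) had adjusted p-values of 0.232 (edgeR) and 0.143 (DESeq2), and Cfb was the 1 member with no adjusted p under 0.05 in any alternative. Cfb overlaps Gm20547 as well, by 2246 bp of exon.

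C2 and Cfb lie next to each other on the minus strand of chromosome 17, with 85 bases between them, and encode related proteases of the parallel convertases. Their balance differed between the groups in each mouse. The log2 ratio of C2 over Cfb was -3.20, -2.56 and -3.72 in the control mice and -2.02, -1.06 and -2.29 in the aPU.1KO mice, with means of -3.16 ± 0.58 (SD, n = 3) and -1.79 ± 0.65. All 3 aPU.1KO mice had higher ratios than the control mice, and the ratio does not depend on the scaling of the libraries. The ratio of C3 over Cfb went the other way, with log2 values of 1.37, 0.83 and 1.29 in the control mice and 0.59, 0.45 and 0.55 in the aPU.1KO mice, again without overlap. These ratios were chosen after their values were seen.

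The remaining alternative pathway genes also split. Cfd, which encodes adipsin, the protease that cleaves factor B, was at 895.8, 1367 and 716.3 CPM in the control mice and at 2498, 5595 and 1640 CPM in the aPU.1KO mice. The groups did not overlap, and aPU.1KO mouse 2 was more than 2-fold above the other aPU.1KO mice. The log2FC was 1.71 (SE 0.48, edgeR adjusted p = 0.101, DESeq2 adjusted p = 0.0405, up to 0.375 over the alternatives), and it was 1.06 without aPU.1KO mouse 2. Cfp, which encodes properdin, a stabiliser of the convertase made by leukocytes, had a log2FC of -1.18 (SE 0.25) and an adjusted p of 0.0768 by edgeR, and the groups did not overlap. Beside C2 and Cfd, 9 of 10 adipocyte markers were higher in aPU.1KO mice, with a median log2FC of 0.38 over the list and of 0.43 for Adipoq, and the part of this shift in the values of C2 and Cfd was not tested. Lep was the adipocyte marker that was lower.

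Beside C3, C4b and Cfb, which cells of the connective tissue also express, all 9 adipose progenitor markers had a lower fitted level in aPU.1KO mice, as had 6683 of all 13925 genes. Their median log2FC was -0.95, and their summed level was 1447 to 2021 CPM in control and 831.2 to 1130 CPM in aPU.1KO mice. The groups did not overlap for 5 of the 9 (15.5% of all genes). Dpp4 had a log2FC of -0.16 (SE 0.62), which ran from -0.91 to 0.30 with each mouse left out. Of the 9 markers, Pdgfrb fell at an edgeR adjusted p of 0.0491, which reached 0.275 over the alternatives. The part of the progenitor level in the values of these genes was not tested. Against the macrophage marker level, the group means of C4b, Cfb and C3 differed by 0.86, 1.05 and 0.42 (aPU.1KO minus control, log2 scale), all under the 1.57 of Cr1l.

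Outside complement, the profiles closest to that of C3 were those of Gldc, Mcm5, Pld3, Tmem176b and Syngr1, at a root mean square difference of 0.12 to 0.15, and those closest to C4b were Crlf2, Nectin3, Prps1, Fam122b and Ccdc3, at 0.086 to 0.10. Pld3 was at 114.3, 55.5 and 117.0 CPM in the control mice and at 51.4, 32.2 and 53.3 CPM in the aPU.1KO mice. The lists near C3 and near C4b had no gene in common with each other or with the list near C1q.

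The anaphylatoxin receptors had the largest differences of the 9 members. C3ar1 (ENSMUSG00000040552; chromosome 6, 122847138 to 122856161), the receptor for C3a, was at 68.1, 14.1 and 62.7 CPM in the control mice and at 9.45, 3.80 and 9.19 CPM in the aPU.1KO mice. Its log2FC was -2.70 (SE 0.63), a 6.50-fold lower level, with 0.0796 (edgeR) and 0.00499 (DESeq2) as adjusted p-values. C5ar1 (ENSMUSG00000049130; chromosome 7, 16246743 to 16259540), the receptor for C5a, was at 35.8, 10.8 and 30.9 CPM in the control mice and at 5.23, 3.89 and 5.49 CPM in the aPU.1KO mice. The log2FC of C5ar1 was -2.41 (SE 0.44), a 5.32-fold lower level, with 0.0724 (edgeR) and 2.59e-06 (DESeq2) as adjusted p-values. For both receptors the adjusted p reached 0.313 without control mouse 1, and without control mouse 2 edgeR gave 0.00783 for C3ar1 and 0.00262 for C5ar1. C5ar1 was also the member that edgeR called when no count filter was used, at an adjusted p of 0.0498. Neutrophils also express C5ar1, and 5 neutrophil markers summed to 19.1 to 39.2 CPM in control and 11.4 to 18.3 CPM in aPU.1KO mice. Most of this sum was S100a8, which had a log2FC of -0.998 (SE 0.296) without overlap between the groups. Csf3r had a log2FC of -1.36 (SE 0.551) with overlap and Cxcr2 of 0.29, while Ly6g was at 0 in the control mice. The part of these genes in the C5ar1 value was not tested.

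Against the macrophage marker level of the same library, C3ar1 was at 0.28, -0.74 and 0.60 in the control mice and at -0.52, -1.47 and -0.66 in the aPU.1KO mice, where the groups overlapped. C5ar1 was at -0.65, -1.13 and -0.42 in the control mice and at -1.36, -1.44 and -1.40 in the aPU.1KO mice, so that each aPU.1KO mouse remained below each control mouse by this measure. Among the markers in the mean, Cd163 and Mertk had log2FC values of 0.29 and 0.056, and Adgre1 and Cd68 of -2.60 and -2.54. The log2FC of C5ar1, -2.41, lay between these, so that its position by this measure depends on which markers are averaged. On the same scale Spi1 was at -1.21, -1.89 and -0.63 in the control mice and at -2.06, -3.06 and -1.79 in the aPU.1KO mice, with an overlap. The genes whose profile was closest to that of C3ar1 were Lat2, Kcnn4, Rab7b, Capg and Dock2, at root mean square differences of 0.083 to 0.13.

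Of 10 receptor genes listed, 8 passed the filter, 7 had lower values and did not overlap between the groups (15.5% of all genes tested), and the median log2FC was -2.41. Only Cd93 passed an adjusted p of 0.05 with edgeR among the 37 complement genes tested, against 0.18% of all genes as lower and 0.237% in either direction. Cd93, a surface protein of endothelial and myeloid cells that was first described as a C1q receptor, fell from 152.8, 122.5 and 126.0 CPM in the control mice to 49.5, 64.0 and 56.7 CPM in the aPU.1KO mice. The log2FC was -1.24 (SE 0.13, edgeR adjusted p = 0.0323), and control mouse 2 did not stand apart for this gene. The call was lost when any mouse other than control mouse 2 was left out, with an adjusted p of up to 0.140, and when at least 10 counts were required in every library (0.0609), while the log2FC stayed between -1.34 and -1.14. The 6 endothelial markers summed to 496.2 to 726.1 CPM in control and 303.0 to 642.5 CPM in aPU.1KO mice, all with a lower fitted level and overlapping groups, and their part in the Cd93 value was not tested. Itgam, Itgax and Itgb2, the integrin chains of complement receptors 3 and 4, had log2FC values of -2.41, -2.85 and -2.77 (SE 0.52, 0.79 and 0.74) with edgeR adjusted p-values of 0.0783, 0.0994 and 0.0941. C5ar2, the other C5a receptor, was at 5.10, 1.18 and 6.50 CPM in the control mice and at 0.97, 1.04 and 0.99 CPM in the aPU.1KO mice. C1qbp, a mitochondrial protein that also binds C1q, was the receptor-list gene with a higher value, at a log2FC of 0.21 (SE 0.09, edgeR adjusted p = 0.200).

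**Figure D3:**
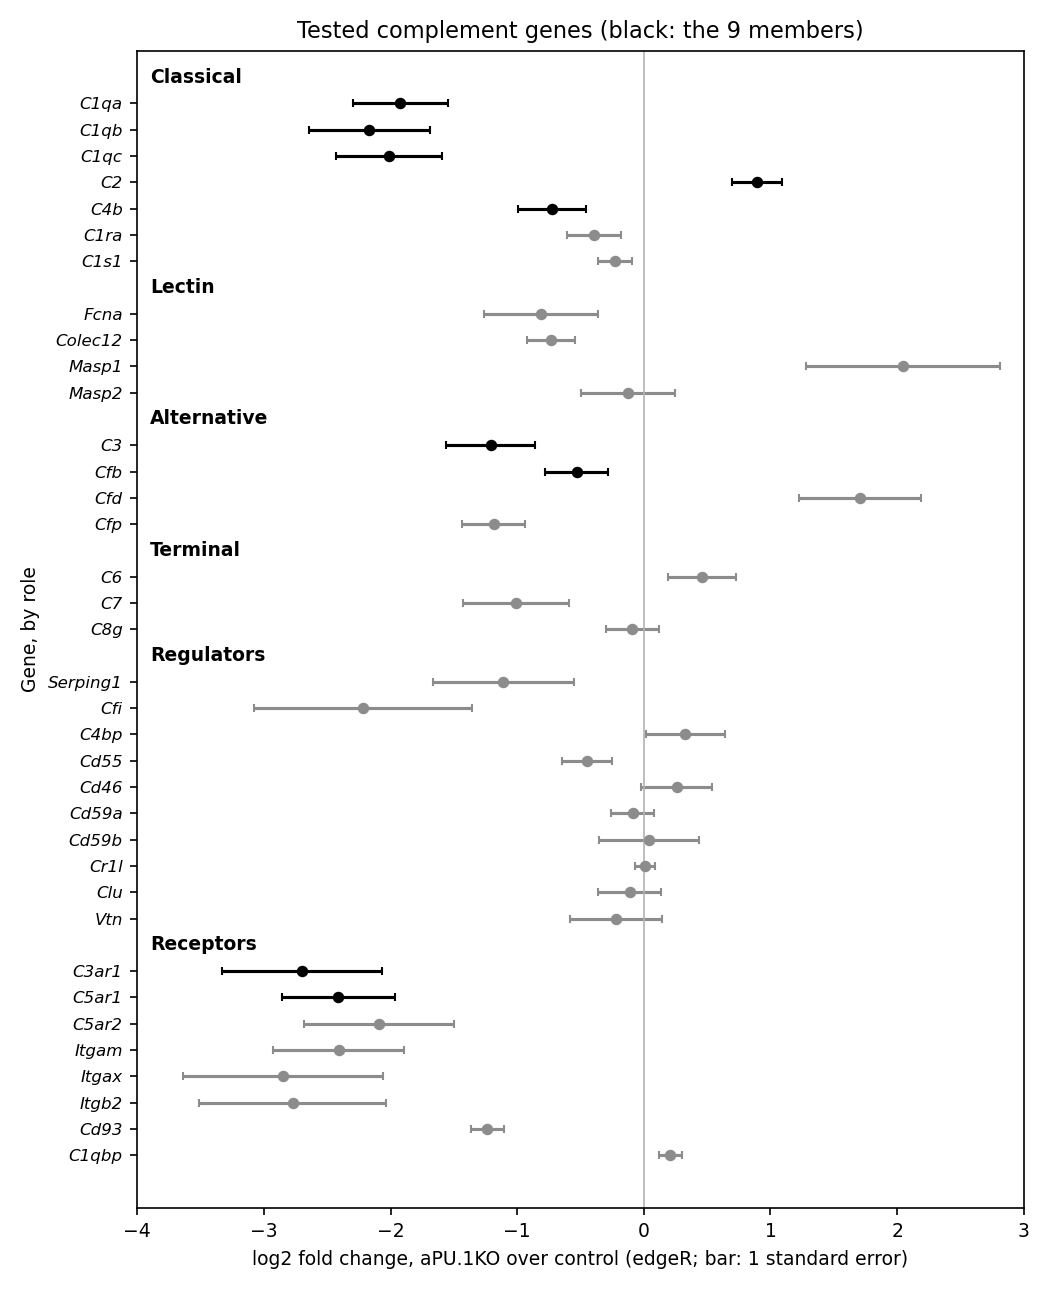
Fold change (log2, aPU.1KO over control, edgeR) of 36 of the 37 tested complement genes, grouped by role, with bars of 1 SE and the 9 members in black. C3ar1, C5ar1, C5ar2, the integrin chains, the C1q genes and Cfi lie furthest to the left, C2, Cfd and Masp1 lie to the right, and regulators such as Cr1l and Cd59a lie near 0.

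The wider complement lists held 55 genes, of which 54 were in the table and 37 passed the filter. Beyond the 9 members, 28 genes were tested, with 20 lower and 8 higher in aPU.1KO mice and a median log2FC of -0.31. At an unadjusted p under 0.05 by edgeR, 10 of these 28 were lower and 2 were higher, where the shares of all genes were 13.7% and 11.9%. The groups did not overlap in 10 lower and 2 higher genes, against 15.5% and 16.7% of all genes. In the lectin pathway, Colec12, a scavenger receptor with a collagen stalk, had a log2FC of -0.73 (SE 0.19, edgeR adjusted p = 0.0912) without overlap. Masp1, a protease of the lectin pathway, was at 1.14, 1.36 and 0.67 CPM in the control mice and at 2.59, 9.45 and 1.09 CPM in the aPU.1KO mice. Its log2FC of 2.04 became 0.79 without aPU.1KO mouse 2, the mouse with the highest C2 and Cfd.

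Soluble and membrane regulators, which limit the cascade on host cells, had a median log2FC of -0.11 over 11 tested genes. Serping1, the C1 inhibitor, was at 296.4, 163.5 and 397.1 CPM in the control mice and at 135.6, 45.7 and 216.3 CPM in the aPU.1KO mice, with overlap and an edgeR adjusted p of 0.262. Cfi, a protease that inactivates C3b and C4b, was at 2.24, 1.27 and 2.54 CPM in the control mice and at 0.36, 0 and 0.95 CPM in the aPU.1KO mice (log2FC -2.22, SE 0.86, edgeR adjusted p = 0.169, with a log2FC of -1.63 without aPU.1KO mouse 2, -3.54 without aPU.1KO mouse 3 and -3.38 under limma-voom). Cd55, a membrane protein that breaks up convertases, was at 42.7, 41.9 and 45.6 CPM in the control mice and at 39.5, 22.3 and 33.6 CPM in the aPU.1KO mice (log2FC -0.45, SE 0.20, edgeR adjusted p = 0.208). Neither gene overlapped between the groups. The membrane regulators Cr1l and Cd59a were close between the groups. Cr1l was at 75.2 ± 0.84 CPM (SD, n = 3) in control and 75.6 ± 6.15 CPM in aPU.1KO mice, and Cd59a at 249.2 ± 18.2 and 234.7 ± 51.8 CPM, differences smaller than the spread between mice. Their log2FC was 0.008 (SE 0.079) and -0.087 (SE 0.17), and that of Cr1l turned negative, at -0.0056, with RLE factors.

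Terminal components and several lectins were near the limit of detection. Of the 17 listed genes that did not pass the filter, 7 (Mbl1, Mbl2, Hc, C8a, C8b, C9 and Cpn1) held 3 counts or fewer in every aPU.1KO library and more than 3 in at least 1 control library, and 0 genes showed the reverse. These are counts that depend on depth, control library 1 was the deepest, and C8b was above 3 only there. The part of depth in these counts was not tested. The same patterns were not counted over all genes under the filter, so that 7 against 0 cannot be read as particular to complement. Hc, which encodes C5, the source of the ligand of C5ar1, had 29, 9 and 9 counts in the control libraries and 0, 1 and 0 in the aPU.1KO libraries. Mbl1 had 33, 6 and 20 counts and 2, 0 and 0 counts. These 7 genes are known as products of hepatocytes. A list of 12 hepatocyte genes summed to 44.6 to 68.3 CPM in control and 19.0 to 25.0 CPM in aPU.1KO mice, all 11 tested were lower without overlap (15.5% of all genes), and 4 of them, Apoa1, Ttr, Fgg and Cps1, passed an adjusted p of 0.05 by edgeR (0.18% of all genes as lower). The adjusted p of these 4 reached 0.145, 0.275, 0.313 and 0.313 over the alternatives. The part of that signal in the low complement genes was not tested. C6 and C7, which were well above the floor, had log2FC values of 0.46 and -1.01 (SE 0.27 and 0.42) with overlapping groups.

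**Figure D4:**
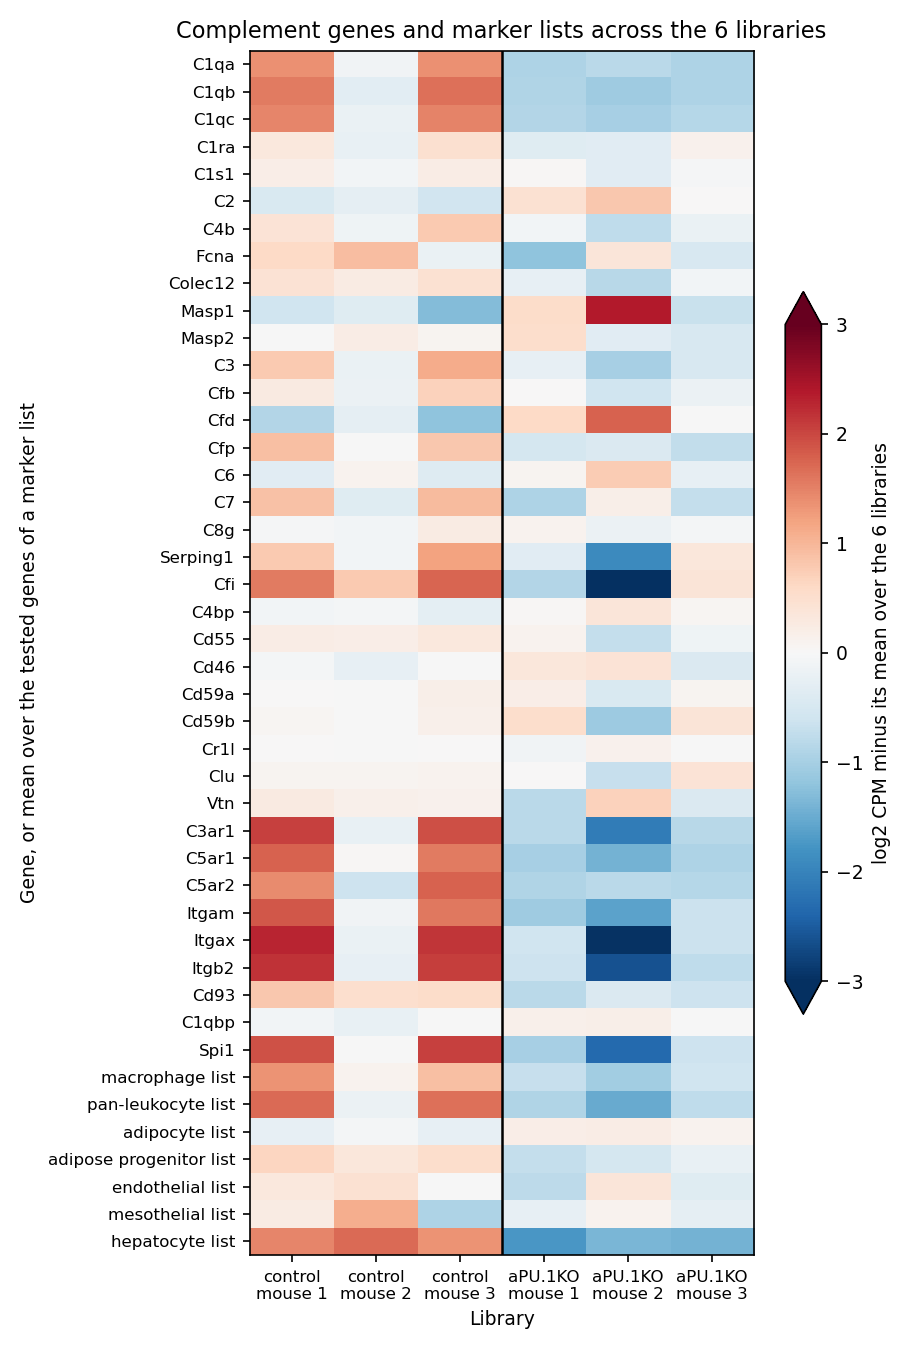
Log2 CPM minus its mean over the 6 libraries (colour scale from -3 to 3, values outside it shown at its ends) for 36 of the 37 tested complement genes, Spi1 and the means of 7 marker lists. The C1q genes, C3ar1 and C5ar1 are high in control mice 1 and 3 and low in the aPU.1KO mice, as are the macrophage and pan-leukocyte lists, while C2 and Cfd are highest in aPU.1KO mouse 2.

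Levels of different genes were compared per kilobase of exon. In control adipocytes the order of the members was C4b at 260.9 ± 79.4 CPM per kilobase (SD, n = 3), C3 at 257.4 ± 107.4, Cfb at 201.2 ± 59.2, C1qb at 86.3 ± 48.6, C1qa at 54.7 ± 25.8, C1qc at 30.5 ± 15.7, C2 at 16.0 ± 1.69, C3ar1 at 11.2 ± 6.91 and C5ar1 at 10.0 ± 5.16. Within the libraries, C4b was above Cfb in all 6. C3 was above both in control mice 1 and 3 and below both in control mouse 2 and the aPU.1KO mice, and C3ar1 and C5ar1 also changed order between the control mice. Cfd, at 1077 ± 364.7 CPM per kilobase, was above all members in every library. In aPU.1KO adipocytes C4b led with 158.1 ± 36.6, followed by Cfb at 139.2 ± 29.3 and C3 at 111.3 ± 28.6. C2 came next at 29.7 ± 8.09 CPM per kilobase, above C1qb at 19.3 ± 1.14, C1qa at 14.5 ± 0.65 and C1qc at 7.57 ± 0.36, whereas in control mice 1 and 3 it was below all C1q genes. C5ar1 at 1.90 ± 0.34 and C3ar1 at 1.74 ± 0.74 remained the lowest.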

How the data were processed

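RNA of the adipocyte fraction of collagenase-digested epididymal fat was sequenced from 3 control and 3 aPU.1KO mice. The authors deposited estimated counts per gene: Salmon (option validateMappings, version not given in the sources used here) quantified transcripts, and transcript counts were summed to genes. The processing notes name GRCm38 and FastQC. The deposited estimated counts are whole numbers without normalization and entered the tests unrounded. Of 35122 genes, 35102 were matched to GENCODE M21 (GRCm38), which also gave coordinates and exon lengths, taken as the union over all transcripts of a gene. All 6 sample columns were used. Duplicate libraries were looked for by chi-square, and no pair within a group gave a value per degree below 19.0. Total counts were 20550252 to 69283842 per library, so that genes under about 1 CPM rest on few counts.

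The comparison used edgeR 4.0.16 under R 4.3.3 (TMM factors, the filterByExpr filter, and glmQLFTest after glmQLFit with its defaults) with Benjamini-Hochberg adjustment over the 13925 genes tested. The standard error was the size of the log2 fold change divided by the square root of F. Log2 CPM used a prior count of 2, and 3 counts or fewer were taken as the floor. Alternatives were RLE and upper quartile factors, at least 10 counts in every library, no filter, DESeq2 1.42.0, limma-voom (limma 3.58.1), legacy = FALSE, control library 1 thinned to 22770714 counts, and leaving out each mouse. Transcript identity came from BLAST 2.17.0. Figures used matplotlib 3.10.9.

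The members, gene lists and tests were chosen with earlier results of these data known. Named were the 9 members, Spi1, genes of the complement and marker lists, and the 5 genes (average log2 CPM of at least 1) whose profile was closest to that of C1q, C3, C4b or C3ar1. Of these, 2 genes are not reported here and 1 of them is left out of the figures.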

Additional observations from a re-analysis of the deposited data

How the results depend on the processing

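At an adjusted p under 0.05, edgeR called 33 of all genes. It called 5 when at least 10 counts were required in every library and 146 without a filter, and DESeq2 called 1869. Leaving out each mouse gave 0 to 1193, with 0 without control mouse 1 (where 1136 lower and 582 higher genes had an unadjusted p under 0.05) and 1193 without control mouse 2. Of the 9 members, 0 were called by edgeR, 1 without a filter, 8 by DESeq2, and 0 to 6 with each mouse left out, where 6 were called without control mouse 2 and 0 without any other. The cause was not tested. Members lower at an unadjusted p under 0.05 numbered 7, and 6 to 8 over all alternatives. For the wider complement lists that count was 17, with 26 without a filter, which tests more genes, and 14 to 21 with each mouse left out. Over all genes it was 1913 of 13925, with 2553 of 21529 without a filter and 1136 to 2165 with each mouse left out.

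The log2 fold changes of the 9 members kept their direction under all alternatives, 111 of 126 on the same side of the threshold and 15 now past it. Log2 fold changes near 0 changed sign when single mice were left out. Masp2 ran from -0.55 to 0.072 (0.019 without aPU.1KO mouse 2), C8g from -0.18 to 0.016, Cd59a from -0.22 to 0.081, Clu from -0.39 to 0.13, Vtn from -0.80 to 0.039, Cd59b from -0.25 to 0.40 (-0.12 without aPU.1KO mouse 3, -0.003 without control mouse 2) and Cr1l from -0.057 to 0.054 (-0.011 without control mouse 2). Cd59b went to -0.14 under limma-voom. Cr1l went to -0.0056 with RLE factors, -0.015 with at least 10 counts in every library, -0.011 without a filter, -0.0055 under DESeq2 and -0.0044 with control library 1 thinned. No paired analysis was possible because no replicate number is shared between the groups in the labels, and the labels do not say which mice came from the same litter. The 17 complement genes under the filter rest on few counts, and the part of depth in these was not tested.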
